A study of Mus musculus with 5 samples.

Results

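The genes described here are 34 mouse genes of the actin and myosin cytoskeleton and of the transcription factors SRF and YAP. They were matched by symbol to the table of cellular genes, which lists 21259 genes. The genes were chosen with earlier results of these data known, so the counts below describe this list only. All 34 were found, and all 34 passed the filter on low values (a mean of at least 10 normalized reads over the 5 libraries). Every library came from NIH3T3, a fibroblast line long established from mouse embryos, and from cells that stably carried a dCas9 transcriptional activator, a cutting-dead Cas9 that raises transcription where a guide RNA places it. In 2 libraries the cells had received plasmids for a scramble guide, and in 3 libraries plasmids for guides against LINE-1, a family of retrotransposons; RNA was taken 48 h after transfection. The labels do not say whether the libraries of a group came from separate cultures, so each p-value reflects nothing but the variation among these 5 libraries, which may be technical.

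Actin filaments are pulled by myosin motors, coated by tropomyosins and calponins, bundled by alpha-actinins and filamin, and anchored at adhesions by vinculin and zyxin. Unpolymerised actin holds back the MRTF coactivators of SRF, so actin assembly and the transcription of actin and contractile genes are tied to each other, and SRF binds a DNA element called the CArG box. YAP, with TEAD factors on DNA, is held back by the LATS kinases of the Hippo pathway and is released in spread, tense fibroblasts, where it drives genes such as Ankrd1, Amotl2 and Axl.

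Depth was high for all libraries. The reads recovered from the normalized values summed to between 30681384 and 45596490 per library. Fibroblast identity was checked with 10 marker genes, and 10 of 10 were detected in each library. Their summed level was 728867 and 782613 normalized reads in the scramble libraries and lay between 496217 and 518874 in the LINE-1 sgRNA libraries, where each marker except Pdgfrb was lower. The part of this shift in the results was not tested. In a bulk sample, fewer cells of a type and less RNA per cell cannot be told apart.

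Most of the 34 genes were lower in the LINE-1 sgRNA libraries. Of the 34, 20 fell, 3 rose and 11 did not pass the test (limma, adjusted p below 0.05 over 14337 genes). Over all genes tested, 25.4% were lower and 18.2% were higher by the same test, against 58.8% and 8.82% of the 34. Well-measured genes were called more often. Among genes with a mean of at least 1000 normalized reads, a limit chosen after the values were seen, 35.6% of 7246 were lower and 15.0% were higher, while 20 of the 30 cytoskeletal genes above that limit (66.7%) were lower and 3 were higher. That limit lies well below the median level of the 34 genes, 9605 normalized reads against 1020 over all genes tested. No share was computed for genes at the level of the 34. The changes were small. The median log2 change of the 34 genes was −0.23, with a range from −0.73 for Actg1 to 0.45 for Amotl1, against a median of −0.06 over all genes tested. In 24 of the 34 genes all LINE-1 sgRNA libraries lay below both scramble libraries, and in 4 they lay above both; over all genes tested the shares were 37.2% and 24.6%. The split over all genes depended on scaling: 3637 were lower and 2606 higher (41.7% of the calls higher), but 2617 (18.3%) and 2979 (20.8%), or 53.2% of the calls higher, after TMM rescaling, where 18 of the 34 genes were lower and 3 higher. TMM moved the median of all genes by 0.05 on the log2 scale. The 3 genes that rose, Actb, Actn4 and Amotl1, also rose under each alternative scaling and test and without each single library.

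**Figure D1:**
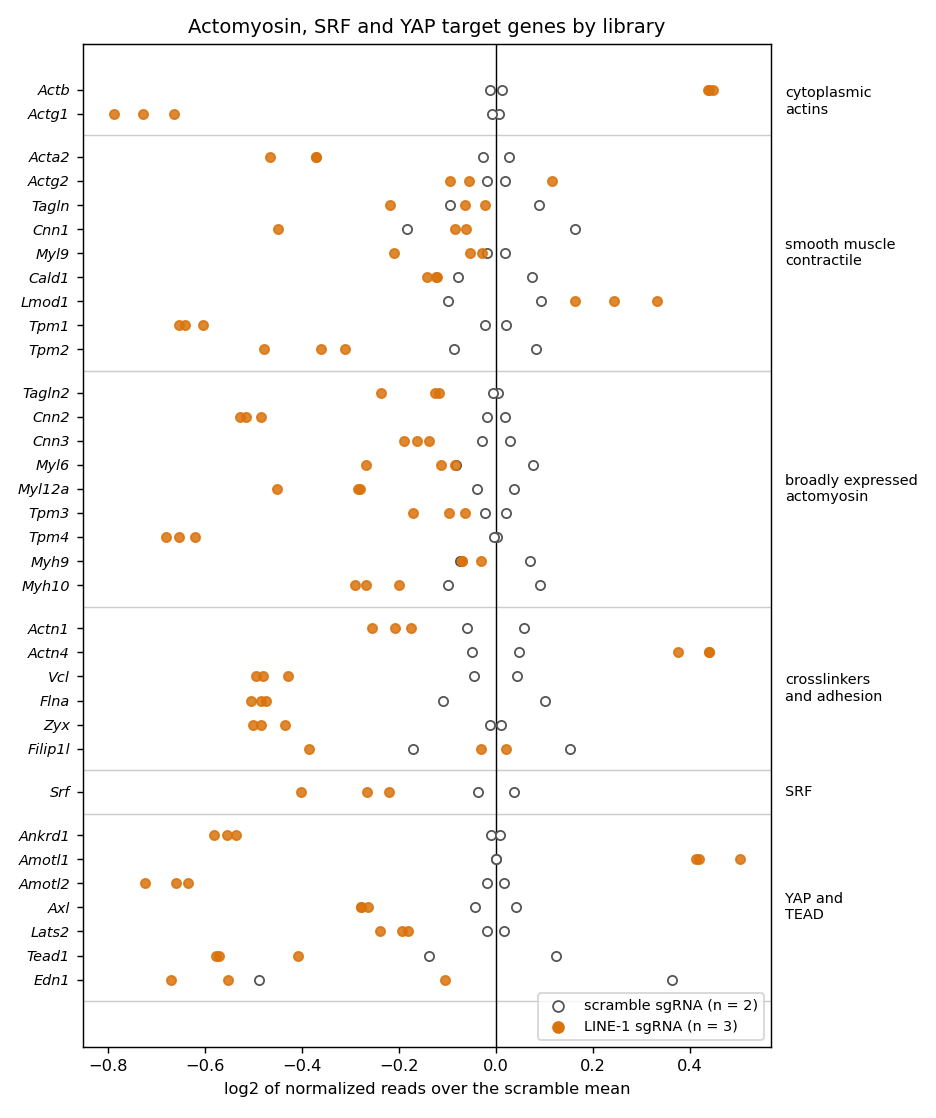
Normalized reads of each of the 34 genes in each library, plotted as the log2 difference from the mean of the scramble libraries and grouped by role; points are single libraries. Actb, Actn4 and Amotl1 stand to the right of zero in all 3 LINE-1 sgRNA libraries. By the mean of the LINE-1 sgRNA libraries, Actg1, Tpm1, Tpm4 and Amotl2 stand farthest to the left. Single points of Edn1, which had few reads, spread widely.

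The cytoplasmic actins moved in opposite directions. Actb and Actg1 encode beta- and gamma-actin, nearly identical proteins that build the filaments of non-muscle cells. Actb (GRCm38 chr5:142903115-142906754, minus strand) stood at 88110 and 86545 normalized reads in the scramble libraries and at 118384, 118488 and 119101 in the LINE-1 sgRNA libraries. It was higher in all 3 LINE-1 sgRNA libraries, and the spread within each group was far smaller than the gap (87328 ± 1107, SD, n = 2, against 118658 ± 387, SD, n = 3). The fold was 1.36, with a log2 change of 0.44 (SE 0.07, adjusted p = 7.7e-05). Actg1 (chr11:120345690-120348542, minus strand) stood at 9202 and 9106 in the scramble libraries and at 5299, 5526 and 5773 in the LINE-1 sgRNA libraries. Every LINE-1 sgRNA library was below both scramble libraries. Actg1 fell by 39.6%, with a log2 change of −0.73 (SE 0.053, adjusted p = 7.8e-09), the largest fall among the 34 genes. The ratio of Actb to Actg1, taken from the group means, went from 9.54 to 21.4. On the log2 scale that ratio was 3.26 and 3.25 in the scramble libraries and 4.48, 4.42 and 4.37 in the LINE-1 sgRNA libraries, a 2.25-fold difference. A ratio within a library is free of the scaling between libraries, and it shows unequal change of the pair. No exact permutation test over 2 and 3 libraries can give a two-sided p below 0.1, so ratios are given as descriptions.

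Per length, Actb was the main actin RNA in each library. It had 45483 ± 577 normalized reads per kilobase of exon in the scramble libraries (SD, n = 2) and 61801 ± 202 in the LINE-1 sgRNA libraries (SD, n = 3). Acta2 came next, at 13536 ± 357 and 10238 ± 384, then Actg1 at 4690 ± 34.5 and 2834 ± 121, and Actg2 at 348 ± 6.16 and 346 ± 27.3. Neighbours in this order were separated by much more than their spread in both groups. Of the summed reads per kilobase of the 6 actin genes, Actb held 70.8% and 71.1% in the scramble libraries and 82%, 82.6% and 81.8% in the LINE-1 sgRNA libraries. The share of Actg1 was 7.28% and 7.35%, then 3.61%, 3.79% and 3.9%. The sum itself was 64794 and 63431 reads per kilobase in the scramble libraries and 75232, 74706 and 75865 in the LINE-1 sgRNA libraries, so the actin RNA pool was larger and held relatively more Actb. Actin transcripts resemble each other and several processed copies in the genome. Of the 50-base stretches of the Actg1 transcript 56.7% also occur in transcripts of other genes, chiefly Gm12715, and 14.2% of those of Actb, and the sources used here do not say how such reads were counted. The Actg1 level is therefore uncertain.

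**Figure D2:**
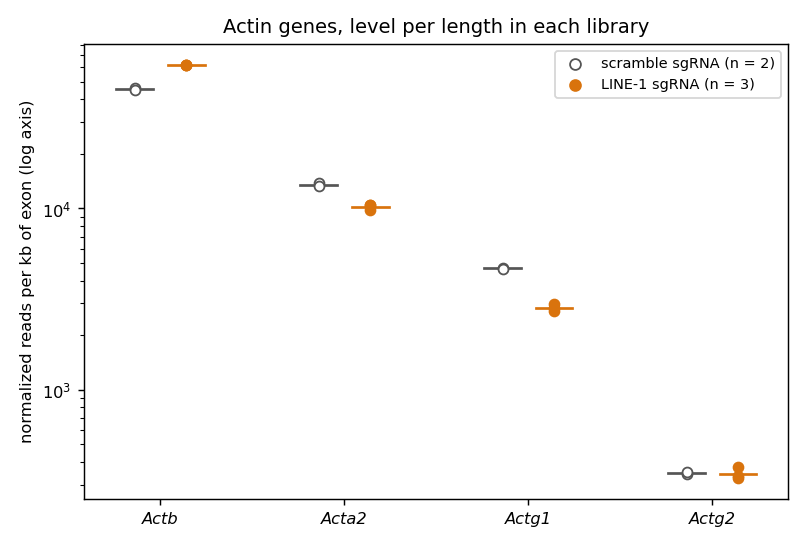
Normalized reads per kilobase of exon of Actb, Acta2, Actg1 and Actg2 in each library, on a log axis; points are single libraries and bars are group means. Actb is near 45483 in the scramble libraries and 61801 in the LINE-1 sgRNA libraries, while Acta2 and Actg1 are lower in the latter.

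The SRF element was searched for in the promoters of these genes. Promoter sequences from RefSeq (GRCm38.p6, 250 bases before to 50 after each annotated start) were matched by symbol for 30 of the 34 genes. Those of Actb, Actg2, Tagln and Tead1 were not used here. The CArG box was present in 7 of the 30 genes (7 of their 35 promoters) on either strand, and in 1.63% of all 32851 promoters of the same length. Of those 7 genes, Actg1, Cnn2, Srf and Vcl fell, and Filip1l, Myl6 and Myl9 did not pass the test. Of the 23 genes without it, 15 fell, beside 25.4% lower over all genes tested. The windows of the 4 genes that fell are shown 5′ to 3′ on the strand of the gene, with the CArG box in capitals, because they cover a cytoplasmic actin, a calponin, an adhesion protein and SRF itself. The 2 boxes of Srf start 82 and 62 bases before its start site. A match of letters is a description and not evidence of binding in these cells.
Actg1 (chr11:120348551-120348610, minus strand): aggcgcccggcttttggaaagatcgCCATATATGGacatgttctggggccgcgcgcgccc
Cnn2 (chr10:79988519-79988578, plus strand): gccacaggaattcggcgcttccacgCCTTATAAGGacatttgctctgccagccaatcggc
Vcl (chr14:20929148-20929205, plus strand): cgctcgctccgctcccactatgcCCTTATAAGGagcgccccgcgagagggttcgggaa
Srf (chr17:46556190-46556269, minus strand): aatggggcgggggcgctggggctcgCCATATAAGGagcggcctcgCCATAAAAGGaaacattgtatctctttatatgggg

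Contractile genes typical of smooth muscle and myofibroblasts were next set against the cytoplasmic actins. Of 9 such genes, 3 fell (Acta2, Tpm1 and Tpm2), none rose and 6 did not pass, a share near the 25.4% lower over all genes and the 35.6% over genes with a mean of at least 1000. Acta2, which encodes smooth muscle alpha-actin and marks myofibroblasts, stood at 28060 and 27032 normalized reads in the scramble libraries and at 21292, 19934 and 21280 in the LINE-1 sgRNA libraries. Tpm1, a tropomyosin gene, stood at 22925 and 22246 and then at 14465, 14353 and 14846. The groups did not overlap for either gene. Acta2 fell by 24.4% (log2 −0.40, SE 0.057, adjusted p = 2.1e-05), and Tpm1 fell by 35.6% (log2 −0.63, SE 0.053, adjusted p = 4.1e-08). Tpm2, which encodes beta-tropomyosin, stood at 9681 and 8606 and then at 7369, 6564 and 7123 (log2 −0.38, SE 0.063, adjusted p = 1.1e-04). Its scramble libraries were 1 high and 1 lower, yet both lay above the highest LINE-1 sgRNA library. Values are per gene, so smooth muscle and other transcripts of a gene, such as Tpm1 or Tpm2, were not told apart.

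The other 6 contractile genes gave no call. Tagln, which encodes the actin-binding protein SM22 and is widely used as a marker of contractile cells, stood at 5602 and 4933 and then at 5187, 4529 and 5042 (log2 −0.10, adjusted p = 0.252), with the groups overlapping. Of its 50-base stretches 48.3% recur in other transcripts, chiefly in Gm48529, so its level is uncertain. Myl9, the regulatory myosin light chain of smooth muscle, had a log2 change of −0.10 (adjusted p = 0.322), and Cald1, which encodes caldesmon, −0.13 (adjusted p = 0.101). Cald1 was at 27597 and 30707 in the scramble libraries and within 26430 to 26805 in the LINE-1 sgRNA libraries. Without the first scramble library Cald1 passed the test (log2 −0.20, adjusted p = 0.013), and over all its alternatives the adjusted p ran from 0.013 to 0.542. Actg2, the enteric smooth muscle gamma-actin, stood at 469 and 481 and then at 457, 445 and 515 (log2 −0.01, adjusted p = 0.935). Its sign turned under TMM rescaling (log2 0.04, adjusted p = 0.781), over a range of 0.604 to 0.973 of the adjusted p. Cnn1, calponin of smooth muscle, ranged from 104 to 159 normalized reads over the 5 libraries (log2 −0.19, adjusted p = 0.412), and Lmod1, a smooth muscle leiomodin, from 86.7 to 117 (log2 0.25, adjusted p = 0.264).

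Against each of these 9 genes, Actb was relatively higher and Actg1 relatively lower in the LINE-1 sgRNA libraries. The log2 ratio of Actb to the contractile gene was larger for 9 of 9, by 0.19 for Lmod1 to 1.08 for Tpm1, with a median of 0.57. For Acta2 it was 1.65 and 1.68 in the scramble libraries and 2.48, 2.57 and 2.48 in the LINE-1 sgRNA libraries. The log2 ratio of Actg1 to the contractile gene was smaller for 9 of 9, by −0.09 for Tpm1 to −0.98 for Lmod1, with a median of −0.60. Actg1 and Tpm1 therefore kept nearly the same ratio, at −1.32 and −1.29 and then at −1.45, −1.38 and −1.36. Because the 9 ratios share 1 numerator, they are not separate observations.

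**Figure D3:**
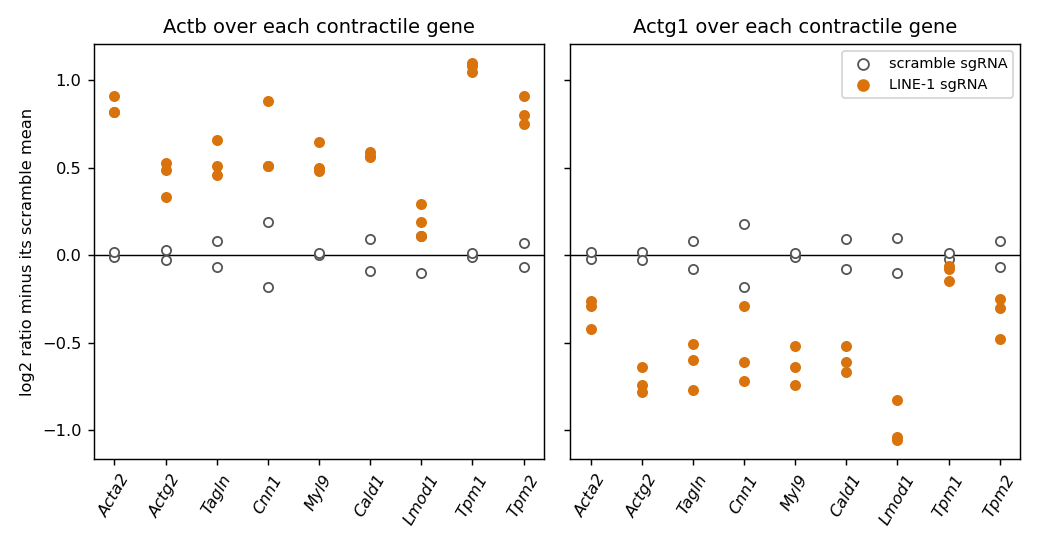
Log2 ratio of Actb (one panel) and of Actg1 (the other) to each of the 9 contractile genes, as the difference from the mean of the scramble libraries; open points are single scramble libraries and filled points single LINE-1 sgRNA libraries. The mean ratio of Actb is higher in the LINE-1 sgRNA libraries by 0.19 to 1.08, and that of Actg1 differs by −0.98 to −0.09.

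Some markers of muscle and of other cell types were higher in the LINE-1 sgRNA libraries. The summed level of 8 smooth muscle markers was 5027 and 5274 normalized reads in the scramble libraries and 7360, 7274 and 7371 in the LINE-1 sgRNA libraries. The markers Actg2, Cnn1 and Lmod1 are also among the 34 genes. The sum was higher through Des, which encodes desmin (91 and 107, then 2119, 2039 and 2096), and Synm, which encodes synemin (302 and 340, then 1227, 1273 and 1173). The marker Smtn was lower, at 3936 and 4080 and then at 3299, 3269 and 3335 (log2 −0.28, adjusted p = 3.7e-04). The defining markers Myh11, smooth muscle myosin heavy chain, and Myocd, the SRF coactivator of smooth muscle, were at or below 27 and 6.17 normalized reads in each library. The 8 cardiac muscle markers summed to 948 and 873 in the scramble libraries and to 1303, 1044 and 1318 in the LINE-1 sgRNA libraries, so the groups did not overlap. Tnnt2, which encodes cardiac troponin T, went from 281 and 226 to 669, 574 and 663 (log2 1.33, adjusted p = 5.6e-08), and Myh6 and Ryr2 were also higher, at or below 24.7 normalized reads in each library. Nkx2-5 went the other way, from 635 and 607 to 554, 387 and 574, and did not pass (log2 −0.32, adjusted p = 0.062). The 6 macrophage markers summed to 1116 and 1147 and then to 1219, 1155 and 1229, again with no overlap. Among them Adgre1, which encodes the F4/80 antigen, went from 1.07 and 1.82 to 30.1, 18.9 and 30.6 (log2 3.48, adjusted p = 1.1e-05) and Cd68 from 162 and 141 to 254, 266 and 238 (log2 0.74, adjusted p = 2.7e-04). The macrophage markers Csf1r, Cd14 and Lyz2 did not pass (log2 −0.15, −0.05 and −0.30). Ptprc (adjusted p = 0.035) and the endothelial marker Vwf (adjusted p = 0.028) were called higher too. The call of Ptprc was lost without the first scramble library (adjusted p = 0.177) or the first (0.154) or second (0.161) LINE-1 sgRNA library, and that of Vwf without the second scramble (0.175) or second LINE-1 sgRNA library (0.113). Sums overlapped between the groups for skeletal muscle (186 and 165, then 174, 133 and 135), epithelium (88.9 and 75.4, then 68.7, 83.1 and 81.4) and endothelium (99.6 and 111, then 107, 153 and 149). No marker of these lists was at 0 in all libraries. The part of other cell types in the results was not tested.

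Among the broadly expressed actomyosin genes, 6 of 9 fell, none rose and 3 did not pass. Over all genes tested 25.4% were lower, and 35.6% over genes with a mean of at least 1000. Tpm4, a tropomyosin of non-muscle filaments, stood at 25307 and 25201 normalized reads in the scramble libraries and at 16036, 15757 and 16428 in the LINE-1 sgRNA libraries. It fell by 36.4% (log2 −0.65, SE 0.053, adjusted p = 3.1e-08). Cnn2, the calponin of non-muscle cells whose CArG box is printed above, stood at 12845 and 12521 and then at 8863, 8791 and 9058. It fell by 29.8% (log2 −0.51, SE 0.051, adjusted p = 3.7e-07), with no overlap between the groups. Myl12a, a regulatory light chain of non-muscle myosin, was at 21056 and 19948 and then at 16889, 14983 and 16835 (log2 −0.34, adjusted p = 2.9e-04). Part of its sequence is shared with Myl12b (29.2% of its 50-base stretches), so reads may be split between the pair. Myh10, the heavy chain of non-muscle myosin IIB, was at 16792 and 19164 and then at 15656, 14701 and 14939 (log2 −0.25, adjusted p = 0.0035). Without the second scramble library the call was lost (log2 −0.15, adjusted p = 0.057), and the adjusted p of its alternatives ran from 3.2e-04 to 0.070.

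The falls of Tagln2 and Cnn3 were the weakest of the 20. Tagln2, a transgelin of non-muscle cells, had a log2 change of −0.16 (SE 0.054, adjusted p = 0.024), and Cnn3, acidic calponin, also −0.16 (SE 0.051, adjusted p = 0.017). After TMM rescaling the adjusted p was 0.121 for Tagln2 and 0.095 for Cnn3. The call of Tagln2 was also lost without either scramble library (0.066 without the first, 0.052 without the second) and without the first (0.061) or second (0.056) LINE-1 sgRNA library. That of Cnn3 was lost without the first scramble library (0.077) or the first LINE-1 sgRNA library (0.084). Over all alternatives it ran from 0.0048 to 0.224 for Tagln2 and from 0.008 to 0.189 for Cnn3. With these calls lost, 4 of the 9 genes fell under TMM rescaling, beside 18.3% over all genes. Myh9, the heavy chain of non-muscle myosin IIA, stood at 39389 and 43548 and then at 40611, 39533 and 39512 (log2 −0.05, adjusted p = 0.510). Tpm3 had a log2 change of −0.11 (adjusted p = 0.108), and 62.4% of its 50-base stretches recur in other transcripts, chiefly in Tpm3-rs7. Myl6, the essential light chain shared by smooth muscle and non-muscle myosin, had −0.15 (adjusted p = 0.063). It passed without the second scramble library (adjusted p = 0.017) and without the third LINE-1 sgRNA library (adjusted p = 0.045), over a range of 0.003 to 0.435.

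Tropomyosin genes differed in how much they changed. Tpm1 and Tpm4 fell by a similar amount, and their log2 ratio was −0.14 and −0.18 in the scramble libraries and −0.15, −0.13 and −0.15 in the LINE-1 sgRNA libraries. The log2 ratio of Tpm3 to Tpm4 was −1.48 and −1.43 and then −0.87, −0.95 and −0.93, a 1.46-fold difference with no overlap. For the calponins, the log2 ratio of Cnn2 to Cnn3 was 0.11 and 0.13 and then −0.24, −0.22 and −0.23, so the order of the pair turned. These pairs were set up with the values known, and 13 such ratios within gene families were computed.

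The crosslinkers and adhesion genes gave 4 falls, 1 rise and 1 gene that did not pass. The shares were 25.4% lower and 18.2% higher over all genes, and 35.6% and 15.0% over genes with a mean of at least 1000. Vcl, which encodes vinculin, a link between actin and adhesion receptors, stood at 14538 and 15453 normalized reads in the scramble libraries and at 10645, 10743 and 11129 in the LINE-1 sgRNA libraries (log2 −0.47, SE 0.053, adjusted p = 1.9e-06). Zyx, which encodes the tension-sensitive adhesion protein zyxin, stood at 18461 and 18764 and then at 13291, 13143 and 13764 (log2 −0.47, SE 0.052, adjusted p = 1.4e-06). Flna, filamin A, stood at 37980 and 43917 and then at 29253, 29461 and 28825 (log2 −0.49, SE 0.066, adjusted p = 1.4e-05). In all 3 genes both scramble libraries lay above every LINE-1 sgRNA library. Vcl fell by 27.7%, Zyx fell by 28% and Flna fell by 28.7%.

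The alpha-actinins, which bundle filaments and link them to adhesions, moved apart. Actn4 stood at 25715 and 27494 and then at 36119, 34523 and 36101, a 1.34-fold rise (log2 0.42, SE 0.059, adjusted p = 2.1e-05). Actn1 stood at 20691 and 22437 and then at 19091, 18054 and 18676, a fall of smaller size (log2 −0.21, SE 0.057, adjusted p = 0.0063). The ratio of Actn1 to Actn4 went from 0.811 to 0.523. The fall of Actn1 did not pass without the second scramble library (log2 −0.15, adjusted p = 0.057), and its adjusted p ran from 0.0022 to 0.061 over the alternatives.

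Overlapping genes limit some of these values. Vcl overlaps Ap3m1 on the opposite strand over 2235 bases of their spans, Actn4 overlaps Capn12 over 316 and Zyx overlaps Epha1 over 1727. The partners moved in the same direction as the gene: Ap3m1 had a log2 change of −0.38 (adjusted p = 1.3e-05), Capn12 0.37 (adjusted p = 9.7e-05) and Epha1 −0.61 (adjusted p = 0.0016). In the scramble and LINE-1 sgRNA libraries Ap3m1 had means of 7057 and 5441 normalized reads, against 14995 and 10839 for Vcl. Capn12 had 1618 and 2098, against 26604 and 35581 for Actn4. Epha1 had 289 and 190, against 18612 and 13399 for Zyx. The sources used here do not say whether reads were counted by strand, so reads from the shared bases of such a pair cannot be told apart. Of the 50-base stretches of the Vcl transcript, 39.2% also occur in Ap3m1, so the size of its fall is uncertain. For Actn4 and Zyx, 7.39% and 3.5% recurred in transcripts of other genes. At least 10% recurred in transcripts of other genes for 11 of the 34 genes. Among these were also Cnn3 (30.3%), Myl6 (18.5%), Tpm4 (16.1%) and Actn1 (10.2%). The case is extreme for Filip1l, a filamin A-interacting protein gene that lies within the span of Cmss1 on the other strand over 220034 bases. Filip1l stood at 26266 and 20956 and then at 23105, 18071 and 23953, and Cmss1 at 26735 and 21455 and then at 23628, 18621 and 24466. The pair had nearly the same value in each library, and no level can be assigned to Filip1l alone (log2 −0.12, adjusted p = 0.355).

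SRF itself was lower. Srf (chr17:46548329-46556175, minus strand) stood at 3005 and 3164 normalized reads in the scramble libraries and at 2566, 2334 and 2647 in the LINE-1 sgRNA libraries, with no overlap. It fell by 18.5% (log2 −0.30, SE 0.063, adjusted p = 0.0011). As printed above, its own promoter holds CArG boxes, and SRF is known to act on its own gene. A part of this in the lower Srf level was not tested.

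Genes of YAP and TEAD gave 5 falls, 1 rise and 1 gene that did not pass, of 7. The shares were 25.4% lower and 18.2% higher over all genes, and 35.6% and 15.0% over genes with a mean of at least 1000. Ankrd1, a classical YAP target that encodes an ankyrin repeat protein, stood at 3871 and 3922 normalized reads in the scramble libraries and at 2687, 2653 and 2604 in the LINE-1 sgRNA libraries. It fell by 32% (log2 −0.56, SE 0.053, adjusted p = 2.3e-07). Axl, a receptor tyrosine kinase gene and YAP target in human cells, stood at 37644 and 39887 and then at 32263, 31956 and 31975 (log2 −0.27, SE 0.058, adjusted p = 0.0011). Both genes had groups that did not overlap, and replicates of Ankrd1 lay close together.

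The angiomotin-like genes, whose proteins bind YAP and actin filaments, moved in opposite directions. Amotl2 (chr9:102716672-102733418, plus strand) stood at 9996 and 10242 and then at 6517, 6124 and 6401. It fell by 37.3% (log2 −0.67, SE 0.052, adjusted p = 1.5e-08). Amotl1 (chr9:14541966-14645056, minus strand) stood at 3223 and 3226 and then at 4295, 4316 and 4574, a 1.36-fold rise (log2 0.45, SE 0.054, adjusted p = 3.6e-06). The ratio of Amotl1 to Amotl2 went from 0.319 to 0.692, a 2.17-fold difference in the mean log2 ratio, and each LINE-1 sgRNA library lay above both scramble libraries. Neither gene changed its call or sign under any alternative run.

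Tead1, a DNA-binding partner of YAP, stood at 7642 and 9166 and then at 5653, 6333 and 5632 (log2 −0.51, SE 0.072, adjusted p = 1.9e-05). Its scramble libraries differed from each other more than those of most genes here, but both lay above the LINE-1 sgRNA libraries. Lats2, the kinase gene that is both an inhibitor and a target of YAP, stood at 2151 and 2203 and then at 1904, 1920 and 1844 (log2 −0.20, SE 0.058, adjusted p = 0.0088). The call of Lats2 was lost with equal table totals (adjusted p = 0.112), with edgeR (0.054) and with DESeq2 (0.071; range over the alternatives 0.0084 to 0.112), and 56.5% of its 50-base stretches recur in other transcripts, chiefly in Gm49361. Edn1, which encodes endothelin 1, was near the low end of detection at 14.2 to 29.1 normalized reads and did not pass (log2 −0.36, SE 0.37, adjusted p = 0.458).

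**Figure D4:**
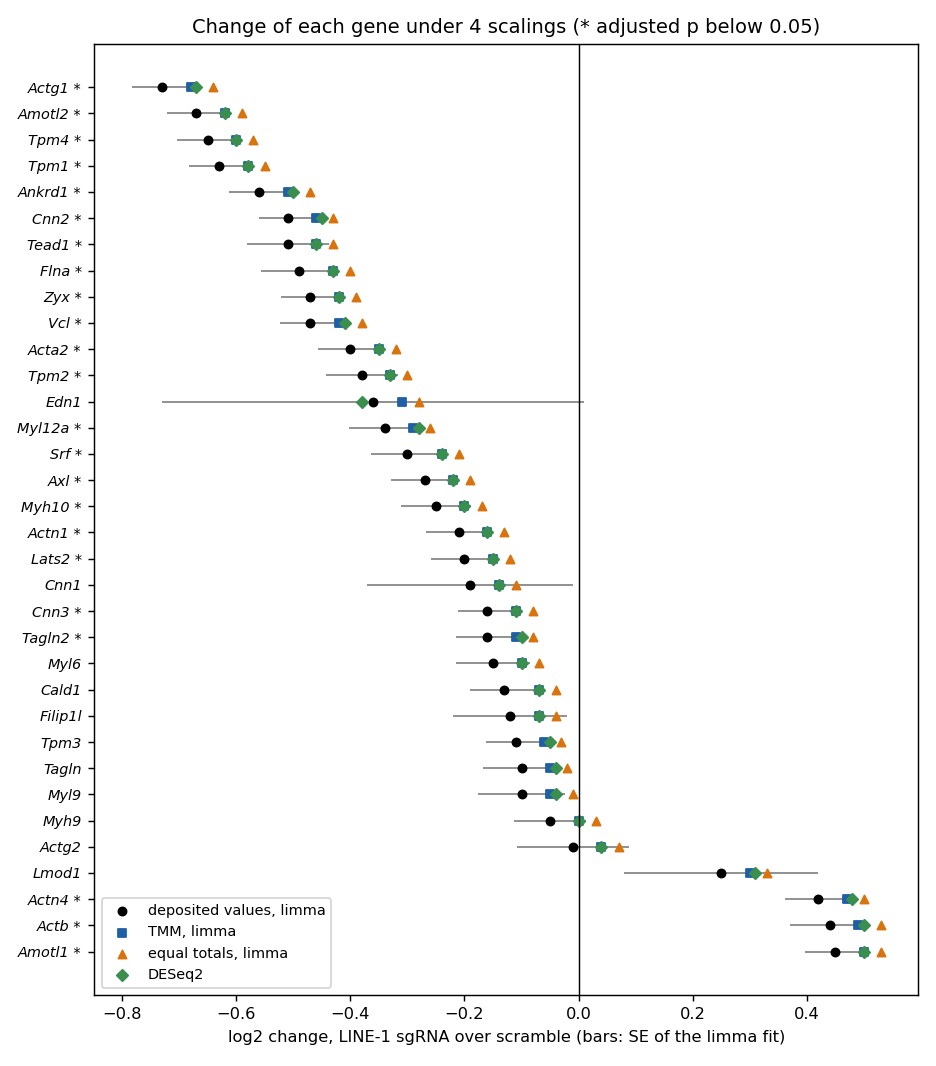
Log2 change (LINE-1 sgRNA minus scramble) of each of the 34 genes from the deposited values (circles, with bars for the standard error of the limma fit), and under TMM rescaling, equal table totals and DESeq2 as separate symbols; an asterisk marks genes that passed the test. The alternatives lie to the right of the circle by less than 0.1, except DESeq2 for Edn1, and Actb, Actn4 and Amotl1 stay above zero while Actg1, Tpm1, Tpm4 and Amotl2 stay well below it.

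The TEAD element was searched for in the same promoters as the letters GGAATG or their reverse complement. It was present in 15 of the 30 genes with a promoter entry (15 of their 35 promoters) and in 14.7% of all promoters of that length. In 13 of the 15 genes a match lay before the start. Of those 15 genes, 11 fell, 1 rose and 3 did not pass, and of the 15 without it 8 fell, beside 25.4% over all genes. Vcl carried both elements, at separate places. Short windows are shown for the YAP target genes Ankrd1, Amotl2 and Axl, which fell, and for Actn4, which rose. They run 5′ to 3′ on the strand of the gene, with the element or its reverse complement in capitals. Edn1, also of the YAP and TEAD group, had a match before its start but did not pass the test, and its window is not printed. Both windows of Ankrd1 and that of Amotl2 lie before the RefSeq start but wholly within annotated GENCODE exons, and those of Axl and Actn4 lie in none.
Ankrd1, first site (chr19:36120037-36120066, minus strand): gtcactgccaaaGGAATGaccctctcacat
Ankrd1, second site (chr19:36119950-36119979, minus strand): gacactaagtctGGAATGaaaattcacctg
Amotl2 (chr9:102717727-102717756, plus strand): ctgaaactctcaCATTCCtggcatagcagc
Axl (chr7:25788949-25788978, minus strand): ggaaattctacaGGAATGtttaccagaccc
Actn4 (chr7:28962531-28962560, minus strand): tgaatgggaacaCATTCCaccccgaaacag

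The wider pathway was read from lists of 122 different genes in all, none of them among the 34. Of the 120 tested, 53 were lower and 18 higher, beside 25.4% lower and 18.2% higher over all genes tested. Most list genes were abundant, and among genes with a mean of at least 1000 normalized reads 35.6% were lower and 15.0% higher. The same lists gave 34 lower and 21 higher after TMM rescaling, beside 18.3% and 20.8% over all genes. The share of their calls that were higher thus went from 25.4% to 38.2%.

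Further targets of SRF and MRTF gave 9 falls and 1 rise of 17 tested, with a median of −0.20, but 6 and 2 after TMM rescaling and 5 and 3 with equal table totals. Over all genes tested 25.4% were lower and 18.2% higher, and 18.3% and 20.8% after TMM rescaling. Tes, Lima1 and Mical2, which act at adhesions or on filaments, had −0.48, −0.44 and −0.41, and the rise was Pdlim7 (0.44).

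Further YAP targets gave 9 falls and 2 rises of 18 tested, with a median of −0.18, but 5 and 3 after TMM rescaling. Over all genes tested 25.4% were lower and 18.2% higher, and 18.3% and 20.8% after TMM rescaling. Ccdc80 and Rbms3 each had a log2 change of −0.86, F3, the tissue factor gene, −0.60 and Asap1 −0.48. The best-known targets, Ctgf and Cyr61, which the table gives under these older symbols, were lower by a small amount or not called. Ctgf had −0.19 (adjusted p = 0.010), a call lost with TMM (0.054), equal table totals (0.093), edgeR (0.061) and DESeq2 (0.056) and without the variance trend (0.083). Cyr61 had −0.08 (adjusted p = 0.311), and both were named after their values were seen. The 20 Hippo pathway genes gave 9 falls and 2 rises, with a median of −0.14, and 6 and 2 after TMM rescaling. In the main fit, 35.6% of genes with a mean of at least 1000 were lower and 15.0% higher. Yap1 itself had −0.29 (adjusted p = 2.2e-04) and the Hippo kinase gene Stk3 −0.32, while Vgll4, a TEAD-binding antagonist of YAP, rose by 0.56 and Taok3 by 0.47.

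Focal adhesion genes were divided. Of 17, 7 fell and 5 rose, with a median of −0.07. Among genes with a mean of at least 1000, 35.6% were lower and 15.0% higher. The balance of the list turned with scaling, as did that over all genes. TMM, edgeR and DESeq2 each gave 4 falls and 6 rises, and equal table totals gave 4 and 7 with a median of 0.02. Pxn, which encodes paxillin, rose by 0.51 and Tns1, a tensin gene, by 0.42, and Lpp, a relative of zyxin, had −0.46 and Ilk, integrin-linked kinase, −0.33. Actin assembly genes gave 13 falls and 2 rises of 26, with a median of −0.15, and 10 and 2 after TMM rescaling. Over all genes tested 25.4% were lower and 18.2% higher, and 18.3% and 20.8% after TMM rescaling. Gsn, which encodes the severing protein gelsolin, had −0.42, the capping protein gene Capza2 −0.33 and the profilin gene Pfn2 −0.31, and Msn, which encodes moesin, rose by 0.38. Each list gene named passed the test unless an adjusted p above 0.05 stands beside it.

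**Figure D5:**
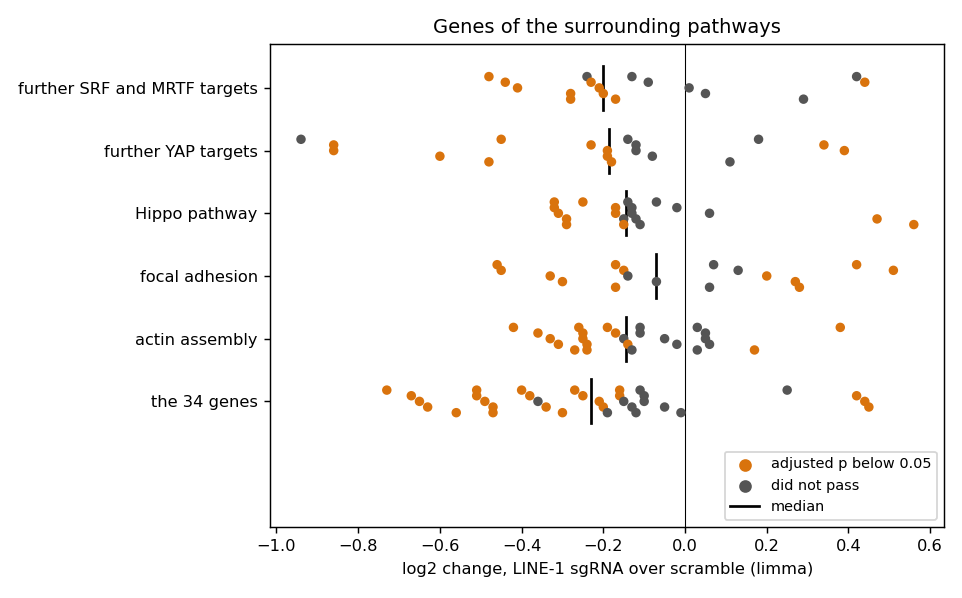
Log2 change (LINE-1 sgRNA minus scramble) of each tested gene in 5 pathway lists and in the 34 genes, 1 point per gene, coloured orange where the gene passed the test and grey where it did not, with a bar at each median. The list medians lie between −0.20 and −0.07, and Vgll4 at 0.56 is the highest point.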

How the data were processed

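RNA-seq libraries were made from total RNA (RNeasy, NEBNext Ultra II, per the labels' protocols). Per the submitters' processing notes, the builds were GRCm38 and mm10 and the tools included SAMtools 1.9, bedtools 2.27.1, DESeq2, STAR 2.5.3a and Bowtie2 2.2.9; the sources used here give neither the rule nor the strand of read counting. The authors deposited a normalized signal per gene, called normalized counts in the labels; 100% of the values were whole multiples of 1 read per library within 0.0001 reads, so reads were recovered. The table held 0 columns that were not used. limma 3.58.1 (R 4.3.3) was fitted to log2(value + 1) with a variance trend over the 14337 genes with a mean of at least 10, with Benjamini-Hochberg adjustment at 0.05; folds on this scale understate changes of low genes. On the recovered reads, edgeR 4.0.16 called 2583 genes lower and 3039 higher, and DESeq2 1.42.0 called 2430 lower and 2808 higher. The fit was tested on simulated data. The genes, lists, tests and alternatives were chosen with earlier results of these data known. All 34 genes are named, and from each pathway list the 4 tested genes with the smallest p; others are named with a remark. The genes of 1 pathway list enter the summed list counts but are not reported here. Positions, exon lengths, overlaps and shared 50-base stretches come from GENCODE M21 (GRCm38). Tables of repeats and of endogenous retroviruses were not used here.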

Additional observations from a re-analysis of the deposited data

How the results depend on the processing

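Of the 34 genes, 20 were lower and 3 higher; over the alternatives the lower count ran from 16 (no variance trend) to 22, and 3 were higher in each. Leaving out single libraries gave 18 to 21 lower. Over all genes 3637 were lower, but 2136 with equal table totals and 2332 without the variance trend. Without single libraries 2851 to 3461 were lower and 2258 to 2496 higher. The calls split 41.7% higher in the main fit, 60.6% with equal totals, 54.1% with edgeR and 53.6% with DESeq2. The pathway lists had 53 lower genes, against 34 with TMM, 32 with equal totals, 35 with edgeR, 33 with DESeq2 and 29 without the variance trend, and 40 to 53 without single libraries (16 to 18 higher). The median of the 9 log2 ratio changes given above was 0.57 for Actb and −0.60 for Actg1. A different measure, the log2 ratio to the contractile genes' median within each library, changed by 0.54 for Actb (0.46 to 0.62 without single libraries). For Actg1 it changed by −0.63 (−0.71 to −0.54), and these ranges belong to the second measure only.

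Signs turned only for genes that did not pass. Actg2 (−0.01) became 0.04 with TMM, 0.07 with equal totals, 0.05 with edgeR and 0.04 with DESeq2, and lay between −0.08 and 0.03 without single libraries (0.01 without the second scramble or the first LINE-1 sgRNA library, 0.03 without the second LINE-1 sgRNA library). Myh9 (−0.05) became 0.03 with equal totals, 0.00 with edgeR and with DESeq2, and −0.13 to 0.02 without single libraries (0.02 without the second scramble library). Filip1l (−0.12) ran from −0.29 to 0.04, with 0.04 without the first scramble and 0.00 without the second LINE-1 sgRNA library, and Edn1 (−0.36) from −0.77 to 0.05, with 0.05 without the second scramble library. The cause was not tested.

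Replicate numbers were shared between the groups for 2 pairs only. The labels do not say that a number marks a shared culture or day, so the numbers were not taken as pairing. The deviations of same-numbered libraries correlated at −0.008 and 0.066. In a group of 2 libraries the deviations are mirror images, so these values cannot decide on pairing. The second library of each group differed along exon length in the same direction (Spearman correlations of 0.34 and 0.24, given below). Whether the numbers mark pairs was not tested. With the replicate number as a block, 22 of the 34 genes were lower and 3 higher, with Myl6 (adjusted p = 0.003) and Filip1l (adjusted p = 0.0079) added; 3906 and 2667 of all genes and 58 and 17 of the pathway genes were called. With 2 against 3 libraries, the genes with the fewest reads (Edn1, Lmod1 and Cnn1) had standard errors of 0.17 to 0.37 on the log2 scale. Without the variance trend, the further YAP targets gave 5 falls in place of 9, the Hippo genes 5 in place of 9 and the actin assembly genes 7 in place of 13.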

Other observations

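Among the actin assembly genes, 4 of the 9 genes listed for the Arp2/3 complex, which nucleates branched filaments, were lower: Actr3 (log2 −0.25, adjusted p = 9.5e-04), Arpc4 (−0.24, adjusted p = 0.0029), Arpc5 (−0.24, adjusted p = 0.0016) and Arpc1b (−0.19, adjusted p = 0.017). The call of Arpc1b was lost with TMM (0.075), equal table totals (0.135), edgeR (0.084) and DESeq2 (0.083), without the variance trend (0.120) and without the first scramble library (0.10), and that of Arpc4 without the variance trend (0.062). The other members, such as Actr2 (−0.02, adjusted p = 0.765) and Arpc2 (0.03, adjusted p = 0.710), did not pass. Over all genes tested 25.4% were lower, and 35.6% over genes with a mean of at least 1000. Both thymosin genes, whose small proteins bind unpolymerised actin, were lower: Tmsb4x had −0.27 (adjusted p = 8.2e-04) and Tmsb10 −0.36 (adjusted p = 4.3e-04). Of the genes for proteins that link filaments to the membrane, Msn (0.38, adjusted p = 4.6e-05) was higher. Ezr (0.17, adjusted p = 0.043) passed in the main fit. Its call was lost with no filter on low values (0.055), without the variance trend (0.151) and with the replicate block (0.057). It was also lost without LINE-1 sgRNA library 1 (0.150) or 3 (0.152), and the log2 change of Ezr was 0.11 without the first scramble library. Rdx (0.05, adjusted p = 0.479) did not pass. The talin genes split like the alpha-actinins, with Tln1 at 0.28 (adjusted p = 8.8e-04) and Tln2 at −0.45 (adjusted p = 1.2e-04). These genes were chosen for mention after their values were seen.

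Libraries of one group differed along gene length. Across 14158 genes, the difference between the second and the first scramble library had a Spearman correlation of 0.34 with exon length, and 0.49 across the 34 genes; for the second LINE-1 sgRNA library against the mean of the other LINE-1 sgRNA libraries the values were 0.24 and 0.44. The difference between the groups had a correlation of −0.01 across all genes and −0.10 across the 34. Genes share their libraries, so these are descriptions; their part in the results was not tested.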
